A study of Xenopus laevis with 13 samples.

Results

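Gene expression across gastrulation of Xenopus laevis, the African clawed frog, was followed from the early gastrula (stage 10.5) to the late gastrula (stage 12). The members were chosen by sample title alone, and they are 2 of the 13 one-color Agilent arrays of the series, 1 array per stage. The series runs from the unfertilized egg through the 2-cell and 16-cell stages and stages 8, 9, 10.5, 12, 15, 20, 25, 30, 35 and 40, with embryos staged by Nieuwkoop and Faber. All samples were untreated whole embryos (or eggs) grown in diluted Steinberg's solution after removal of the jelly, and no allele or agent distinguished them. Each RNA sample came from several embryos pooled at a stage, and the spread between embryos or clutches was not measured. For 2 of the arrays used here the labels disagree: the free-text description of the stage 12 sample names stage 11, and that of the stage 15 sample names stage 12. The titles, source names and stage fields give 12 and 15, and these were used. Both gastrula arrays lay on the same slide, together with stages 9 and 15.

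In frog embryos, cleavage runs largely on RNA stored in the egg, and broad transcription of the embryo's own genome starts at the midblastula transition, before gastrulation. During gastrulation, mesoderm and endoderm move inside around the blastopore lip, the organizer region patterns the axis, and stored maternal RNA continues to be degraded. By stage 15 the neural plate has formed and is folding. A whole-embryo RNA level sums over all of these tissues, so fewer cells of a type and less RNA per cell cannot be told apart. The probes are identified in the files by GenBank accession and not by gene name. None of the 28256 accessions (0) matched the reference gene table of the Xenopus_laevis_v10.1 assembly, and the accessions of only 2 genes, gcnt2 and mgat5b, were named by the study's list of glycan synthesis genes. Organizer, mesoderm, endoderm and neural plate markers could therefore not be checked against the stage labels.

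Both gastrula arrays were of similar quality. Of 45220 spots on each array, 1417 were controls, and 43803 probes remained. At stage 10.5, 69.2% of the probes carried the scanner software's flag for signal well above background, and at stage 12 68.8% did, against 63.9% at stage 9 and 70.7% at stage 15. None of the 153 negative control spots (0) passed this flag on either gastrula array, and no probe was saturated. The 75th percentile of the processed signal was 1665 at stage 10.5 and 1198 at stage 12. Levels below are log2 of the processed signal minus the array's own 75th percentile, so 0 is the level of that percentile. They rank one probe across arrays and do not rank different probes against each other.

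More probes rose than fell by at least 2-fold between early and late gastrula, and most changed less. Of 31764 probes well above background on at least 1 of the gastrula arrays, 6610 (20.8%) rose, 4491 (14.1%) fell and 20663 (65.1%) stayed within 2-fold. The rises covered 4894 accessions and the falls 3063. Among the rises, 5283 were measured on both arrays and 1327 were lower limits, because the probe was not well above background at stage 10.5. Among the falls, 4145 were measured on both arrays and 346 were limits. A limit sets the bright array against the lowest signal well above background on the dim array, or against the probe's own dim signal where that was higher. The lowest level well above background was -6.44 at stage 10.5 and -5.72 at stage 12, so a probe seen only at stage 12 started nearer to a 2-fold limit than one seen only at stage 10.5. The limit stayed under 2-fold for 131 of the 1458 probes seen only at stage 12 and for 1276 of the 1622 seen only at stage 10.5. Over the 28684 probes measured on both arrays, the log2 change had a median of 0.13 with quartiles at -0.55 and 0.72, and ran from -6.42 to 10.45. The median measured rise was 1.69 and the median measured fall was -1.51 on this scale.

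The preponderance of rises at 2-fold rested on the scaling. Rises made up 59.5% of all 2-fold changes under the 75th percentile, and 45.2% after scaling to the array median, 46.5% after quantile normalization, 43.9% after scaling to the spike-in RNAs added at labeling and 49.2% after normexp background correction with quantile normalization. These scalings moved the median of all probes by -0.26, -0.42, -0.29 and -0.43 on the log2 scale. No probe called after quantile normalization, with or without normexp, was called in the opposite direction under the 75th percentile. Scaling to the median or the spike-ins moves every probe alike by less than 2-fold, so it could not reverse a call. Large changes were more often rises under every scaling tried. With the 75th percentile, 514 probes rose at least 16-fold and 33 fell as much. The numbers were 400 and 49 with the median, 435 and 59 with quantile normalization, 391 and 49 with the spike-ins, and 119 and 14 with normexp. The normexp correction added an offset of 50 to every signal, which by itself makes the folds of dim probes smaller. At 64-fold or more there were 90 rises and 4 falls under the 75th percentile.

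**Figure D1:**
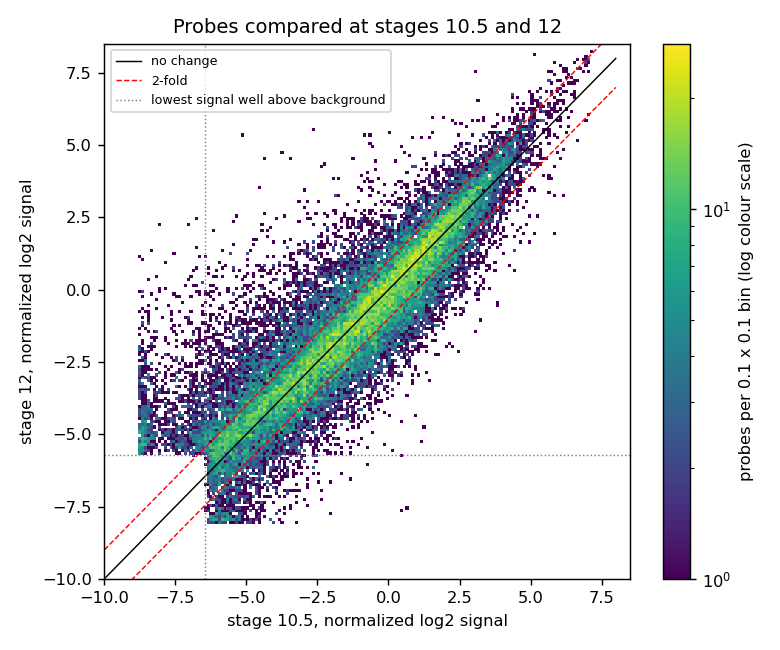
Normalized log2 signal at stage 12 (vertical) against stage 10.5 (horizontal) for the 31764 probes compared, counted in square bins of 0.1 with a log color scale; dashed lines mark 2-fold and dotted lines the lowest signal well above background on each array. The cloud follows the line of no change, and the points farthest from it lie above, where 514 probes rose at least 16-fold against 33 that fell.

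With 1 array per stage, no test between the stages was possible, and the calls are differences between these pooled samples. The scanner software's own error model, which covers spot measurement but not embryos, labeling or hybridization, gave the log2 change a standard error of 0.205 at the median (0.204 to 0.445). The median lay close to the lowest value, because the error of bright spots was a nearly fixed share of their signal. It is thus a model value and not a spread between repeated spots. By that error, 3700 of the 9428 measured changes (39.2%) passed 2-fold by less than 1.96 standard errors. Near the limit, 732 probes rose 2- to 2.2-fold and 931 rose 1.8-fold to just under 2-fold. For falls the numbers were 687 and 895. Among the probes measured on both arrays, rises were 23.6% of the 7171 dimmest and 15.3% of the 7171 brightest, and falls were 11.6% and 9.73%. The probes between these formed a dimmer and a brighter set of 7171 each. In the dimmer set 19.0% rose and 18.7% fell, and in the brighter set 15.8% rose and 17.7% fell. Falls were thus more frequent at middle levels than at either end, and outnumbered rises in that brighter set, by 1270 to 1132. Over the 4 quadrants of the array surface, the share that rose lay between 19.9% and 21.4% and the share that fell between 13.4% and 15.1%. Probes to accessions starting with BC rose in 16.3% and fell in 16.5% of cases, and probes to all other accessions rose in 23.4% and fell in 12.8%.

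The probes that rose and those that fell had different earlier histories. The falls were mostly RNAs present since the egg: 4144 of 4491 (92.3%) were well above background on all 5 earlier arrays, from the egg to stage 9, and 84 (1.87%) on none. The rises were mixed, with 3063 of 6610 (46.3%) above background on all 5 earlier arrays and 2172 (32.9%) on none. Over all probes compared these shares were 78.2% and 9.54%. A probe absent from every earlier array has little level to lose, so its history and its direction are not independent. After gastrulation, 6120 of the rises (92.6%) were above background on all 6 arrays from stage 15 to stage 40. So were 3595 of the falls (80.0%), against 86.8% of all probes compared. A rise is called only where the probe is above background in the late gastrula. A fall needs this in the early gastrula, and a probe compared needs it in either. The later share of the rises and the earlier share of the falls were thus partly built in. Of the probes within 2-fold, 85.3% were above background on all 5 earlier arrays and 86.4% on all 6 later arrays.

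The median level of the rises showed where the increase began. It was between -5.57 and -5.13 on the 5 arrays from the egg to stage 9, reached -3.64 in the early gastrula, -1.24 in the late gastrula and -0.28 at stage 15, and was -0.99 at stage 40. The median had thus begun to increase between blastula and early gastrula. The falls kept a median between -0.06 and 0.03 from the egg to stage 9, came to -0.44 in the early gastrula, -2.14 in the late gastrula and -2.55 at stage 15, and stood at -1.83 at stage 40. The stage 10.5 and 12 levels of both sets were fixed in part by the choice of probes on those arrays, and the levels on the other 11 arrays were not used in it.

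Some RNAs were first detected within gastrulation. At stage 12, 1067 probes were well above background that had been so on none of the egg to stage 10.5 arrays, and the limit of the rise reached 8-fold for 313 of them. A limit of 2-fold, reached by 1001, was nearly given by the higher background floor at stage 12. Of these first appearances, 822 (77.0%) were above background on all 6 later arrays and 44 (4.12%) on none, against 86.8% and 2.64% of all probes compared. The early gastrula had a larger set of its own: 1964 probes were above background at stage 10.5 and on none of the 5 earlier arrays. From there to stage 12, 1171 of them (59.6%) rose further, 709 (36.1%) stayed within 2-fold and 84 (4.28%) fell. Over all probes compared these shares were 20.8%, 65.1% and 14.1%. A probe first seen at stage 10.5 may have little level to lose above the higher floor of stage 12. The share of falls among these probes was thus limited by their choice. In the opposite direction, 1622 probes were above background at stage 10.5 and not at stage 12. Of these, 648 (40.0%) had been present on all 5 earlier arrays, 368 (22.7%) were above background on all 6 later arrays and 436 (26.9%) on none. Over all probes compared these shares were 78.2%, 86.8% and 2.64%. For 346 of the 1622 the fall limit was at least 2-fold.

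The step through gastrulation was compared in size with its neighbors on the same slide. From stage 9 to stage 10.5, 3576 of 30862 probes (11.6%) rose and 2076 (6.73%) fell, and from stage 12 to stage 15, 5224 of 32185 (16.2%) rose and 5557 (17.3%) fell. Over all probes, the Pearson correlation of early with late gastrula was 0.942, beside 0.937 for the step before it and 0.943 for the step after it. These correlations run across genes, which are not independent replicates, and consecutive steps share an array. The share of probes past 2-fold in either direction was 34.9% within gastrulation, 18.3% in the step before and 33.5% in the step after, all under the 75th percentile.

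Most rises and most falls held their new level at stage 15, as did most probes of any kind. Of the 6610 rises, 4120 (62.3%) stayed within 2-fold of their stage 12 level, 2159 (32.7%) rose at least 2-fold further and 331 (5.01%) fell back at least 2-fold. Of the 4491 falls, 2610 (58.1%) stayed within 2-fold, 1376 (30.6%) fell further and 505 (11.2%) came back up. Among all 32185 probes well above background at stage 12 or 15, 16.2% rose and 17.3% fell at least 2-fold in this step. Staying within 2-fold was thus the usual course for any probe. The held falls include 243 probes well above background at neither stage 12 nor stage 15. Both steps use the stage 12 array, so an error on that array alone would push a probe one way in the first step and the other way in the second. Among the 514 rises of at least 16-fold, 297 (57.8%) continued, 196 (38.1%) held and 21 (4.09%) reversed. Among the 33 falls of that size, 14 continued, 13 held and 6 reversed.

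The continued rises came from low levels before gastrulation, and their further rise from stage 12 to stage 15 was built in by their choice. Their median went from -6.59 (stage 9) and -5.16 (stage 10.5) to -2.35 (stage 12), -0.08 (stage 15) and 0.31 (stage 20), and 884 of the 2159 (40.9%) were above background on no earlier array. At stage 9, 1002 of them were well above background and the lowest such level was -6.42, so the stage 9 median is a dim signal and not a measured level. The held rises had a median of -4.91 (stage 9) that went to -2.67 (stage 10.5), -0.53 (stage 12) and -0.28 (stage 15). Their choice kept them within 2-fold from stage 12 to 15, and their median then came down to -1.20 (stage 40). Of the 4120 held rises, 2168 (52.6%) were present on all 5 earlier arrays. The 331 reversed rises formed a peak at the late gastrula, which their choice built in against stages 10.5 and 15. Their median climbed from -6.23 (stage 9) to -2.75 (stage 10.5) and -0.87 (stage 12), and came down to -2.40 (stage 15) and -3.74 (stage 40). Like the continued rises, they came from low levels, and 134 (40.5%) were above background on no earlier array. At stage 9, 169 of them were well above background, so their stage 9 median too was near the floor. At stage 15, 234 of them were back within 2-fold of their stage 10.5 level, 81 were still at least 2-fold above it and 16 were at least 2-fold below it. Stages 20 to 40, which took no part in the choice, had medians below that of stage 15. This was not particular to the reversed rises. The held rises were also lower than at stage 15, at -0.58 (stage 20) and -1.20 (stage 40). The continued rises were higher at stage 20, at 0.31, and lower at stage 40, at -0.45.

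The continued falls were chosen by falling further at stage 15, so their drop from stage 12 to stage 15 was built in. Their median dropped from 0.26 (stage 9) and 0.08 (stage 10.5) to -1.69 (stage 12), -3.56 (stage 15) and -3.73 (stage 20). By stage 40 this median had come up to -2.72. Of the 1376 continued falls, 1261 (91.6%) were present on all 5 earlier arrays, much like the held falls (92.7%) and the reversed falls (91.7%). The held falls had medians of -0.50 at stage 10.5, -2.20 at stage 12 and -2.26 at stage 15. The 505 reversed falls formed a dip at the late gastrula, which their choice built in against stages 10.5 and 15. Their median came down from -0.27 (stage 9) to -1.42 (stage 10.5) and -3.33 (stage 12), and went back to -1.47 (stage 15) and -0.73 (stage 40). At stage 15, 393 of them were back within 2-fold of their stage 10.5 level, 64 were still at least 2-fold below it and 48 were at least 2-fold above it. Of these 505, 498 (98.6%) were above background on all 6 later arrays, beside 80.0% of all falls and 86.8% of all probes compared. A rise to stage 15 is called only where the probe is above background at stage 15, so this share was partly built in.

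**Figure D2:**
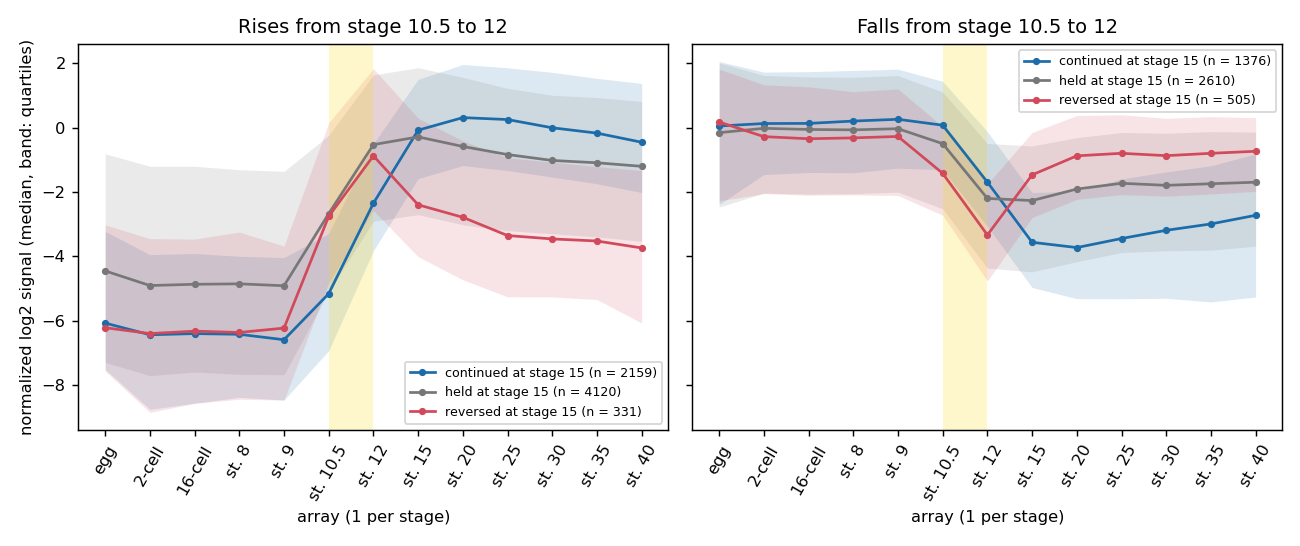
Median normalized log2 signal on each of the 13 arrays (lines) with the quartiles (bands) for probes that rose (left) or fell (right) at least 2-fold from stage 10.5 to stage 12 (shaded), separated by their course at stage 15. The 331 reversed rises peak at stage 12, at a median of -0.87, and the 505 reversed falls have their lowest median there, at -3.33. Both sets were chosen by turning back after stage 12.

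The counts of reversals moved with the scaling, and the cause was not tested. Scaling to the spike-in RNAs shifted all probes by -0.29 over the first step and by 0.11 over the second. With the spike-ins, 189 rises and 804 falls reversed, and after normexp with quantile normalization 145 rises and 287 falls did. Reversed falls outnumbered reversed rises under each of these settings. With no filter on dim probes the order turned, to 732 reversed rises and 707 reversed falls.

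Stages 9 and 15 share neither gastrula array, so the direction across gastrulation could be read from other arrays. From stage 9 to stage 15, 6108 of the 6610 rises (92.4%) were at least 2-fold higher and 3 were lower, beside 34.2% higher among the 33045 probes well above background at stage 9 or 15. Of the 4491 falls, 3836 (85.4%) were at least 2-fold lower and 143 (3.18%) higher, beside a background of 27.4% lower. Only the 3753 rises well above background at stage 9 could be called lower. Likewise, only the 3875 falls well above background at stage 15 could be called higher. The probes that stayed within 2-fold through gastrulation were higher in 17.9% and lower in 25.2% of cases. The reversed sets were chosen by moving back at stage 15, so a smaller net change from stage 9 was built into them, and their values are a description. Of the reversed rises, 223 of 331 (67.4%) were higher at stage 15 than at stage 9, and of the reversed falls, 255 of 505 (50.5%) were lower, 205 were within 2-fold and 45 (8.91%) were higher. The net change persisted into the tadpole for most probes. At stages 20, 25, 30 and 35, the share of rises above stage 9 was 87.0%, 81.8%, 79.0% and 76.6%, beside 33.6%, 34.0%, 34.6% and 35.6% of the 33793, 34417, 35118 and 34693 probes well above background at stage 9 or that stage. The share of falls below stage 9 was 79.4%, 77.3%, 76.0% and 73.6%, beside 30.7%, 30.6%, 30.2% and 30.6% of the same probes. At stage 40, 4841 of the rises (73.2%) were still at least 2-fold above stage 9 and 3204 of the falls (71.3%) at least 2-fold below it, against 35.0% and 30.8% of the 36165 probes well above background at stage 9 or 40. Among the 31764 probes compared between the gastrula arrays, from which the rises and falls were drawn, 29.2% to 31.3% were higher and 28.5% to 34.7% lower than at stage 9 over stages 15 to 40. Stages 20 to 40 lay on other slides than stage 9, and slide and stage cannot be told apart there.

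**Figure D3:**
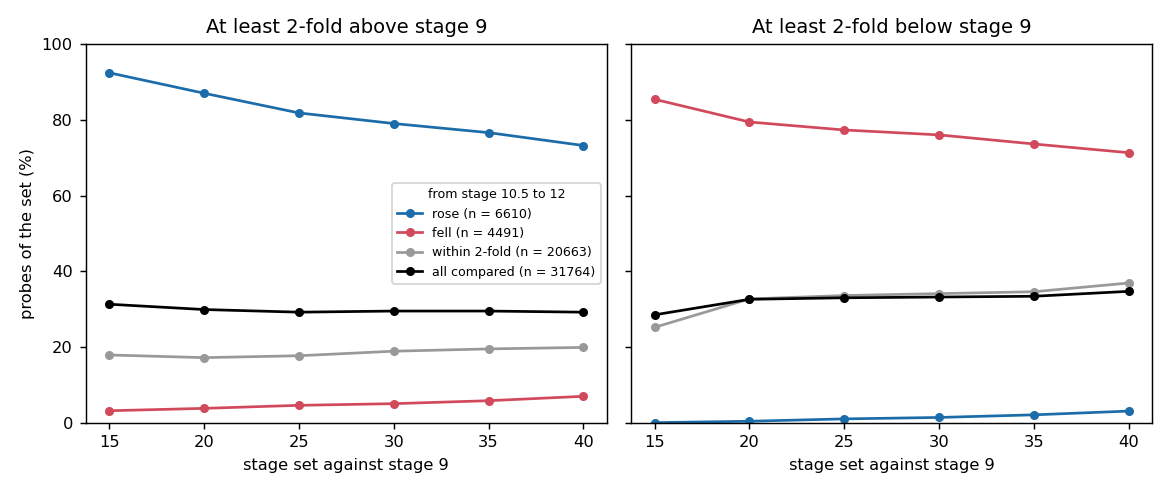
Percentage of probes at least 2-fold above (left) or below (right) their stage 9 level at stages 15 to 40, for probes that rose, fell or stayed within 2-fold from stage 10.5 to stage 12 and for all probes compared. The share of rises above stage 9 went from 92.4% at stage 15 to 73.2% at stage 40, and the share of falls below it from 85.4% to 71.3%.

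Probes designed to the same accession gave a second reading of the same RNA sample. They share the embryos, the labeling and the array, so their differences measure probe and spot variation and not that of embryos. Of 10210 accessions with at least 2 probes compared, all probes rose in 1667 (16.3%), all fell in 1411 (13.8%) and all stayed within 2-fold in 6086 (59.6%). In 488 accessions (4.78%) some but not all probes rose, with the others within 2-fold, and in 553 (5.42%) some but not all fell. Probes of 1 accession went in opposite directions, each past 2-fold, in 5 accessions (0.049%). Read per probe, 3381 of the 3876 rises with another probe to compare (87.2%) were called a rise by it too, as were 2835 of the 3397 falls (83.5%).

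The size of the change also repeated between probes. In 8951 accessions with exactly 2 probes, both measured on both arrays, the log2 changes correlated at 0.953, taking each pair in both orders. The difference between the changes had a standard deviation of 0.37, with a median size of 0.130 and a 95th percentile of 0.756. In 270 accessions (3.02%) it exceeded 1. The spread depended on brightness. When pairs were sorted by their dimmer probe, the standard deviation was 0.55 over the 2238 dimmest pairs and 0.20 over the 2238 brightest, so a change of 1 on this scale (2-fold) stood farther outside the probe spread for bright RNAs.

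**Figure D4:**
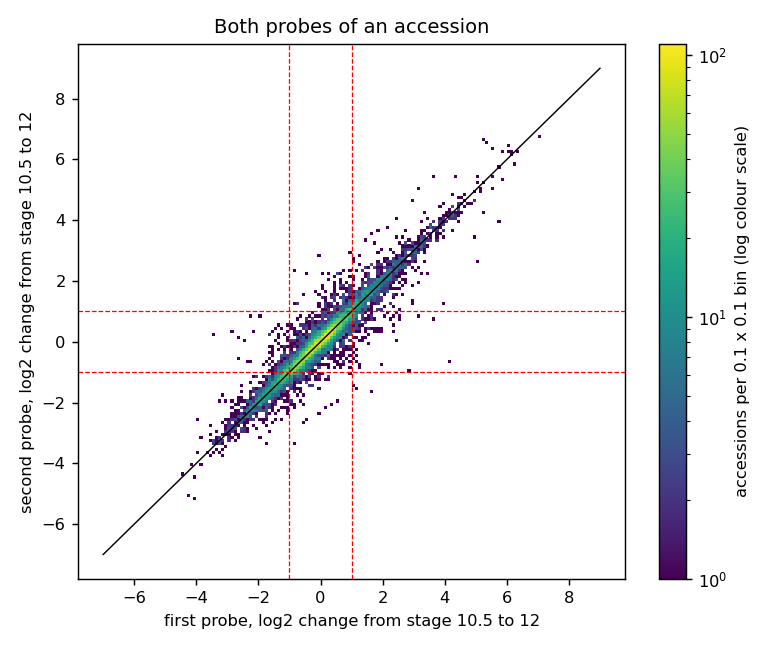
Log2 change from stage 10.5 to stage 12 of the first probe (horizontal) and second probe (vertical) of 8951 accessions, counted in square bins of 0.1 with a log color scale; dashed lines mark 2-fold for each probe. Most accessions lie along the line of equal change, and 270 lie more than 1 from it.

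The course at stage 15 repeated as well. Of the 1667 accessions in which all probes rose, all probes had the same course at stage 15 in 1560 (93.6%): 586 continued, 894 held and 80 reversed. Of the 1411 in which all probes fell, the same held for 1243 (88.1%): 387 continued, 717 held and 139 reversed. Late gastrula peaks and dips were thus each read by more than 1 probe in 80 and 139 accessions. Of the 223 reversed rises with another probe to compare, 188 (84.3%) had a partner that also rose and 164 (73.5%) one that also reversed. For the 402 reversed falls these numbers were 329 (81.8%) and 279 (69.4%).

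The largest disagreements between probes of 1 accession were of unlike kinds. In the most discordant accession, one probe rose by 4.13 on the log2 scale, from -1.54 to 2.59, and then stood at 0.89 at stage 15, while its partner went from -4.39 to -5.03 and -6.13. Both were low at stage 9, at -8.74 and -8.50. In the next, one probe rose by 2.81, from -2.27 to 0.54, while its partner, 1.59 at stage 9, went from 0.04 to -0.87 and back to 1.17 at stage 15. Whether such pairs read different transcripts under 1 accession was not tested.

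Both of the largest measured rises continued at stage 15. Probe Xl#S19567993_732 (BP730974) had a processed signal of 47.2 ± 6.2 (error model) at stage 10.5, 47506 ± 4751 at stage 12 and 320845 ± 32084 at stage 15, and was well above background on none of the 5 earlier arrays. Its normalized level went from -5.14 to 5.31, a 1399-fold rise, and on to 8.13. It remained between 7.71 and 8.16 through stage 35 and was at 4.89 at stage 40. Probe Xl#S13831559_1413 (BC042927) went from -4.30 to 4.52, a 454-fold rise, and to 6.95 at stage 15, and of the earlier arrays passed the background flag only in the egg, at -5.18. It was highest at stage 35, at 7.46. The largest limit among probes not well above background at stage 10.5 was a rise of at least 460-fold, to a level of 2.41 that was unchanged within 2-fold at stage 15, at 2.40.

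The largest measured falls were of 2 probes to 1 accession, U29448, whose signal peaked at the early gastrula. Probe Xl#S13589801_1201 was not well above background from the egg to stage 8, stood at -5.48 at stage 9 and 1.17 at stage 10.5, and was at -5.24 at stage 12, an 85.4-fold fall. Probe Xl#S13589801_1160 stood at -5.28, 1.24 and -4.73 at the same stages, a 62.8-fold fall. At stage 15 neither was well above background, at -8.07 and -6.62. The remaining probe to this accession, Xl#S13589801_1241, was at 0.68 at stage 10.5 and not well above background at stage 12, at least 84.2-fold lower. All 3 probes were highest at stage 10.5, and their levels later on did not exceed -4.28.

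**Figure D5:**
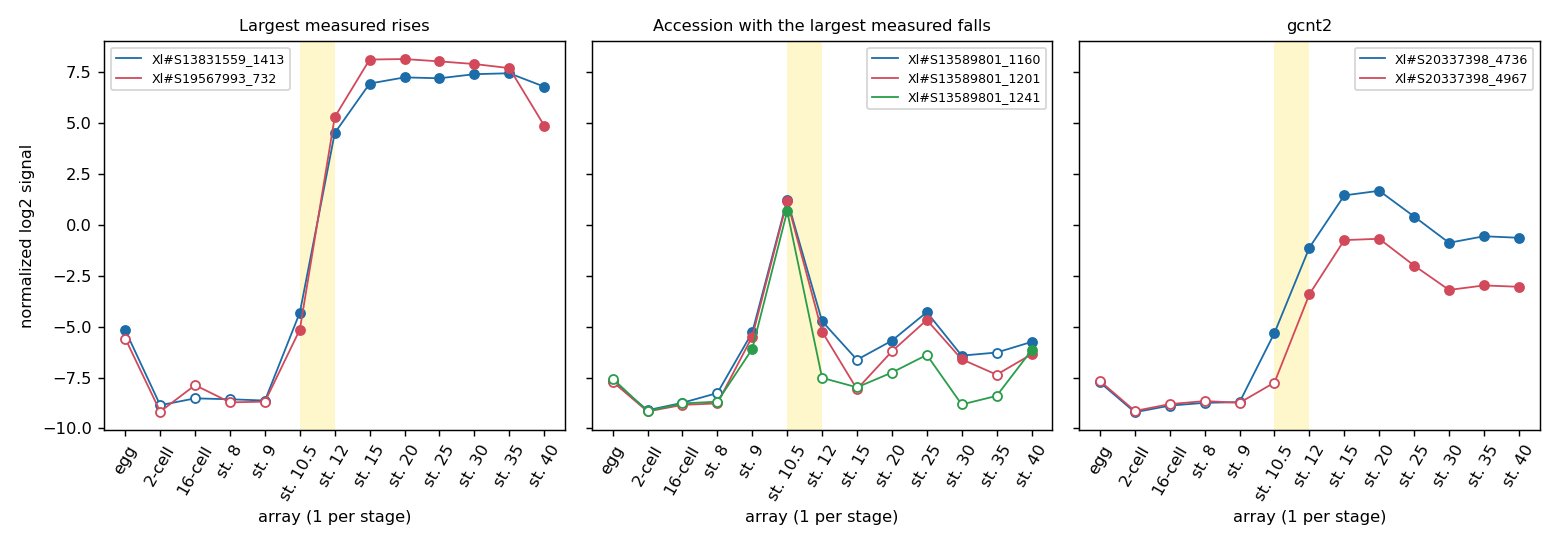
Normalized log2 signal on the 13 arrays of the probes with the largest measured rises (left), of the 3 probes to the accession with the largest measured falls (middle) and of both gcnt2 probes (right); filled points were well above background and open points were not, and the gastrula interval is shaded. The 3 probes in the middle panel are highest at stage 10.5, between 0.68 and 1.24.

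Of the genes of glycan synthesis, gcnt2 could be followed. It encodes an N-acetylglucosaminyltransferase that, in mammals, adds the branches of poly-N-acetyllactosamine chains (the I antigen). Neither of its probes (BC072294) was well above background on any array from the egg to stage 9, and both rose through gastrulation. Probe Xl#S20337398_4736 had a processed signal of 42.2 ± 5.8 at stage 10.5, 555.1 ± 55.7 at stage 12 and 3131 ± 313 at stage 15 (error model). Its normalized level went from -5.30 to -1.11, an 18.3-fold rise, and to 1.46, a further 5.92-fold. Probe Xl#S20337398_4967 was not well above background at stage 10.5, and was at -3.40 at stage 12, at least 8.21-fold higher, and at -0.74 at stage 15, a further 6.33-fold. Both probes were highest at stage 20, at 1.68 and -0.68, and at stage 40 were at -0.63 and -3.04. After normexp background correction the rises from stage 10.5 to 12 were smaller on the log2 scale. They were 2.71 for the former probe and at least 1.17 for the latter, in place of 4.19 and at least 3.04. That correction added an offset of 50 to every signal, which by itself makes the folds of dim probes smaller.

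For mgat5b, which in mammals branches O-mannosyl glycans of the brain, neither probe (BJ067477) was well above background at stage 10.5, 12 or 15. Its levels at those stages were -6.44, -6.16 and -7.73 on probe Xl#S13710824_415 and lay between -7.69 and -6.53 on probe Xl#S13710824_320, and no change was detectable there. Both probes passed the background flag at the 2-cell stage, at -6.59 and -6.64, and at stage 40, at -5.19 and -5.45. Probe Xl#S13710824_415 also passed it at stages 30 and 35.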

How the data were processed

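Total RNA of whole embryos was labeled with Cy3 by the Quick-Amp kit and hybridized to one-color Agilent Xenopus 4x44k arrays. The authors deposited scanner files with an intensity per spot on a linear scale, background-corrected by Agilent Feature Extraction 10.7.3.1, its error and flags; the genome build behind the probes is not given in the sources used here. All 587860 values of the deposited series table were identical to that intensity. Where a spot was not significant, the deposited intensity equals its own error (ratio 0.998 to 1.004), so such a signal is a placeholder. Changes against any signal not well above background, placeholder or not, are given as limits.

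Following the study's methods, signals were floored at 1 (0 values changed), taken as log2 and scaled to the 75th percentile of 43803 non-control probes. A probe entered a comparison if either array showed it well above background, and a change of at least 2-fold, limit included, was called. The course at stage 15 was further, within 2-fold or back. The calculation of changes, limits and courses was checked on simulated data with known changes, which is no test of the stages. Python 3.11.15, numpy 2.4.6, pandas 2.3.3, matplotlib 3.10.9, R 4.3.3 and limma 3.58.1 (normexp and quantile normalization) were used.

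Each stage has 1 array, which limits the precision of every value, and no p-value was computed. The probes named were, by rule, the 2 largest measured rises and falls, and the genes of the study's list whose accessions matched, gcnt2 and mgat5b. The study also describes fut1, abo, mgat1, galnt3, galnt7 and galnt11, whose probes could not be identified here. Planned lists of organizer, germ layer, neural and glycan genes could not be applied, since accessions carried no gene names. Members and lists were chosen with earlier results of these data known. Alternatives were other scalings, filters, limits and 1 value per accession. No probe sequence was used here.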

Additional observations from a re-analysis of the deposited data

How the results depend on the processing

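No paired analysis was possible because no stage has a replicate array or a replicate number. Of 135 recalculated values, 96 changed by at most 1.5 times (for a single probe, in its log2 change) and 39 changed by more. Some of the 96 could not change. The deposited series table is identical to the intensity used. Probe Xl#S20337398_4736 was well above background on both arrays, so the treatment of dim signal left it as it was. All recalculated values but those of gcnt2 are counts, which have no sign, and no gcnt2 change reversed. The balance of rises and falls did turn, from 59.5% rises to 45.2%, 46.5%, 43.9% and 49.2% with the median, quantile normalization, spike-ins and normexp. With a limit of 4-fold there were 2654 rises, of which 455 continued, 2182 held and 17 reversed, and 1077 falls, of which 133 continued, 904 held and 40 reversed; all probes of an accession rose in 717 cases and fell in 309. After normexp with quantile normalization, 3746 probes rose, of which 1103 continued, 2498 held and 145 reversed, 287 falls reversed, and all probes rose in 957 accessions. With the spike-ins, 189 rises and 804 falls reversed. Requiring both arrays above background left 1413 continued rises, and no filter gave 732 reversed rises and 707 reversed falls. With 1 mean value per accession, 2881 accessions fell, of which 891 continued and 1642 held. Opposite calls within an accession, 5 in the report, numbered 9 with the median, 12 with quantile normalization, 8 with the spike-ins, 2 with normexp, 3 with both arrays above background, 56 with no filter and 0 at 4-fold. Counts of changes of at least 4- and 16-fold under each scaling were added after seeing the data: 4-fold rises and falls numbered 2154 and 1623 with the median, 2203 and 1564 with quantile normalization, 2105 and 1685 with the spike-ins, and 1231 and 675 with normexp. The cause of these shifts was not tested. The gene lists were not run, since accessions carried no names. Treatment of dim signal moved both directions: 5283 probes rose and 4145 fell with both arrays above background, and 8918 and 5161 with no filter.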
